A study of Mus musculus with 8 samples.

Results

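Mature oligodendrocytes of the mouse hippocampus that were rich in Opalin and had no detected Klk6 are described here, from single-cell RNA sequencing of 2 libraries. Their members were chosen by measured values: at least 500 detected genes, under 15% mitochondrial UMIs (unique molecular identifiers, each standing for 1 captured RNA molecule), at least 3 of the 6 genes Mog, Mag, Ermn, Aspa, Mal and Cldn11 with a UMI, at least 2 Opalin UMIs, 0 Klk6 UMIs and 0 UMIs over Pdgfra, Aqp4 and Cldn5. The rule found 5537 cells among the 12954 that passed the gene and mitochondrial limits, 3280 in the library called DTRneg and 2257 in the library called DTRpos. DTRneg came from Foxp3-DTR- littermate mice and DTRpos from Foxp3-DTR+ mice. Both groups received diphtheria toxin, which kills cells that carry its receptor, here the regulatory T cells that express Foxp3, so every control mouse was toxin-treated as well. Hippocampal cells outside the CD45 and Thy1 gates (CD45- Thy1-) were sorted after perfusion, and 2 mice were pooled for each library. The age of the mice and the time after toxin were not given in the sources used here. With 1 library per genotype there is no replicate check, so differences between DTRpos and DTRneg carry counting intervals only and no p-value. The design asked how the hippocampal niche changes after regulatory T cells are depleted.

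Oligodendrocytes wrap axons in myelin, a stack of lipid-rich membrane held together by proteins such as myelin basic protein (Mbp). Mature oligodendrocytes of the brain are known to differ among themselves, and forms rich in the secreted protease gene Klk6 are told from forms rich in Opalin, which encodes a membrane glycoprotein of the myelin sheath, or in Ptgds, which encodes the prostaglandin D2 synthase also known as beta-trace. Enpp6, a choline phosphodiesterase gene, is known as a marker of oligodendrocytes that are starting to make myelin. Oligodendrocytes are also a source of the alarmin Il33 in the brain.

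Promoters of 3 genes are shown, since Opalin set the rule, Ptgds ordered the members in a split described further on, and Enpp6 differed most along that order. Each is the RefSeq window of 250 bases before to 50 bases after the gene's start (GRCm38.p6, the assembly behind the mm10 build of the labels), 5′ to 3′ on the gene's own strand. Capitals mark ACAAAG or ACAATG, letters of the kind bound by SOX factors, or their reverse complements CTTTGT and CATTGT. Opalin lies on the minus strand at chr19:41077064-41077363, Ptgds on the minus strand at chr2:25469700-25469999 and Enpp6 on the plus strand at chr8:46986637-46986936.
Opalin: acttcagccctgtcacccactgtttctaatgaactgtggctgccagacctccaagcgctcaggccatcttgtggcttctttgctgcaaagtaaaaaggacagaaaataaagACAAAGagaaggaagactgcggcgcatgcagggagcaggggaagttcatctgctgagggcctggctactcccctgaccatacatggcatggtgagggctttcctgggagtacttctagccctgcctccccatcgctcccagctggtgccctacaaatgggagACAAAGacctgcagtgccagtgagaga
Ptgds: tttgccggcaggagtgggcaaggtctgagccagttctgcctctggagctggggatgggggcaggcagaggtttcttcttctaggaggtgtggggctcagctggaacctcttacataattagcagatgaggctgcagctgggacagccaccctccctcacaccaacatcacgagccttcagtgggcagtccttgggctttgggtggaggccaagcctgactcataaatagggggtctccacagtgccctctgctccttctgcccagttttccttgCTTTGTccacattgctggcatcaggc
Enpp6: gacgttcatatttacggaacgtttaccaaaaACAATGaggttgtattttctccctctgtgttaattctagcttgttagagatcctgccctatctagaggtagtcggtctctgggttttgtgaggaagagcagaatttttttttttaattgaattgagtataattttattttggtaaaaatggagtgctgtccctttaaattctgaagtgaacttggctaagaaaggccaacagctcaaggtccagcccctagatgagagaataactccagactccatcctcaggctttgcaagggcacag
The Opalin window held ACAAAG at 2 places and the Ptgds window held it once on the reverse strand, while the Enpp6 window held ACAATG once. Among 32851 promoter windows of the same length, 18.7% held ACAAAG and 12.6% held ACAATG on either strand, and 28.6% held at least 1 of them. These matches describe letters in the windows and are not binding sites shown by these data.

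The DTRneg library held 8220 barcodes with 53484704 UMIs and the DTRpos library 6548 barcodes with 35814655 UMIs, and the libraries shared 18 barcodes. The members of DTRneg had a median of 7538.5 UMIs and 2555.5 genes per cell, and those of DTRpos 6163 UMIs and 2292 genes. Summed over members, this gave 30426724 and 18286575 UMIs. Levels below are CPM, the UMIs of a gene scaled to a common total of these sums, and an interval in brackets is an exact 95% interval that covers counting error only. Foxp3 had 0 UMIs in the members of both libraries, which leaves a share of cells with a UMI of up to 0.112% and 0.163% (exact 95% bounds), so the depletion itself was not measured in these cells.

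Markers that the rule did not use were high in members. Ptgds stood at 24371 CPM in DTRneg and 28222 CPM in DTRpos members, with a UMI in 99.2% and 99.6% of cells. In the cells with under 3 of the 6 mature genes, Ptgds stood at 1284 and 1199 CPM and had a UMI in 61.6% and 67.9% of cells, at median depths of 3732 and 3313.5 UMIs. Nkx6-2, a transcription factor gene of maturing oligodendrocytes, stood at 763 and 829 CPM in members, with a UMI in 97.7% and 96.7% of cells against 3.35% and 3.22% of those other cells. Myrf, the regulator of myelin genes, reached 212 and 197 CPM, and Sox10, a factor of the whole lineage, 358 and 385 CPM. These 3 genes were not particular to members. Klk6-positive mature oligodendrocytes held Nkx6-2 at 752 and 791 CPM, Myrf at 215 and 212 CPM and Sox10 at 352 and 376 CPM. Ptgds was lower in those cells, at 15273 and 17091 CPM. Of the genes that did enter the rule, Opalin stood at 1986 and 2201 CPM, Mal at 11711 and 13297 CPM and Mog at 1952 and 1890 CPM.

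Marker lists of other cell types and stages were lower in members than in the cells with under 3 mature genes, except for red blood cells in DTRpos. Summed over 10 genes of oligodendrocyte precursors, members held 28.0 and 45.5 CPM, against 5722 and 7267 CPM in the cells with under 3 mature genes. Pdgfra was at 0 there by the rule. Over 9 microglial genes, members held 18.6 and 16.6 CPM, with Tmem119 at 0 in both libraries. Over 9 neuronal genes, members held 14.8 and 9.95 CPM. Other lists were less low. The 16 genes of committed and newly formed oligodendrocytes summed to 520 and 516 CPM, against 1664 and 1861 CPM in the cells with under 3 mature genes. The 10 astrocyte genes summed to 191 and 210 CPM, with a UMI in 62.3% and 59.4% of members. The 7 endothelial genes summed to 222 and 222 CPM, mostly from Bsg at 216 and 217 CPM. The 6 choroid plexus genes summed to 2271 and 1860 CPM, of which Enpp2, an enzyme gene that oligodendrocytes also express, gave 1652 and 1804 CPM. The 5 red blood cell genes summed to 304 and 153 CPM, and 94.7% and 80.6% of those UMIs lay in the 5 richest cells of each library.

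**Figure D1:**
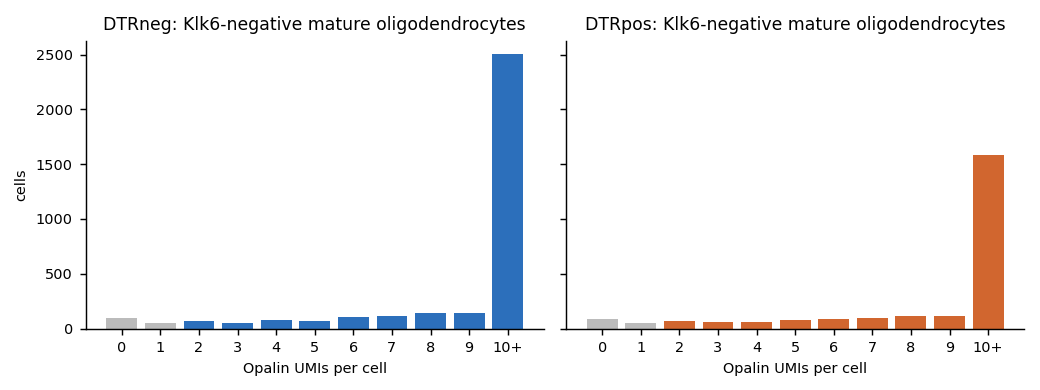
Number of Klk6-negative mature oligodendrocytes (y axis) by Opalin UMIs per cell (x axis, with 10 or more pooled) in each library; grey bars lie below the limit of 2 UMIs. The cells just below the limit (47 in DTRneg and 46 in DTRpos with 1 UMI) are few against the 3280 and 2257 members.

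Member cells carried a median of 15 Opalin UMIs in DTRneg (from 2 to 116) and 14 in DTRpos (from 2 to 135). As the histogram of Opalin UMIs shows, few cells lay near the limit. Just inside it, 69 and 66 cells had exactly 2 Opalin UMIs, and just outside it, 47 and 46 cells had exactly 1. The DTRneg cells with 2 Opalin UMIs held 8385 CPM of Ptgds and 1840 CPM of Mog, and those with 1 held 4295 and 1425 CPM. In DTRpos the same cells held 13816 and 10084 CPM of Ptgds and 1671 and 1320 CPM of Mog. The transthyretin gene Ttr, a choroid plexus product, stood at 51129 CPM in the DTRneg cells with 1 Opalin UMI and at 83.2 CPM in those with 2, while the DTRpos cells held 58.8 and 55.7 CPM.

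Members made up 88.2% of the 3717 mature oligodendrocytes of DTRneg (87.2 to 89.3) and 86.7% of the 2604 of DTRpos (85.3 to 88.0). The log2 ratio of these shares was -0.03 (-0.05 to 0.00166) with the rule as given and -0.05 (-0.09 to -0.02) with at least 4 Opalin UMIs. When every cell was thinned to 2000 UMIs and the rule applied again, the shares were 81.5% and 83.7%, and the log2 ratio was 0.04 (0.00466 to 0.07), in the other direction. Thinning took the mature cells with a Klk6 UMI from 294 to 96 in DTRneg and from 213 to 75 in DTRpos. Klk6-negative cells with under 2 Opalin UMIs went from 143 to 604 and from 134 to 344. A count of 0 Klk6 UMIs thus depends on depth and does not show that a cell lacked Klk6 RNA. Of all cells, members were 46.2% in DTRneg (45.0 to 47.3) and 38.6% in DTRpos (37.3 to 39.8), a log2 ratio of -0.26 (-0.32 to -0.20). A share of sorted cells moves with the yield of every other type, and with 1 pool of 2 mice per genotype the pool and the genotype cannot be told apart.

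Gene levels in members were close in the 2 libraries. Of 1720 genes at 100 CPM or more in at least 1 library, 5 differed by 2-fold or more, which is 0.291% of them. The median log2 ratio of DTRpos over DTRneg over these genes was 0.06, and 90% of them lay between the 5th percentile of -0.33 and the 95th of 0.26. At 10 CPM or more, 30 of 7466 genes passed 2-fold, or 0.402%, and the median was 0.07. The 1 gene past 2-fold on the higher side was mt-Atp6, a mitochondrial ATP synthase gene, at 105 CPM in DTRneg and 216 CPM in DTRpos, a log2 ratio of 1.05 (0.98 to 1.11). With TMM scaling of the sums its ratio was 0.97, just under 2-fold. It was also higher in DTRpos in Klk6-positive cells (0.95) and in cells with under 3 mature genes (0.99). The 4 on the lower side were Ttr, Gstp1, Ubb and Hbb-bs. Mitochondrial genes as a group went both ways in members. Of 18 at 10 CPM or more, 8 lay above 0 and 10 below, with a median log2 ratio of -0.03. They ran from mt-Nd3 at -1.91 to mt-Ta at 1.20.

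**Figure D2:**
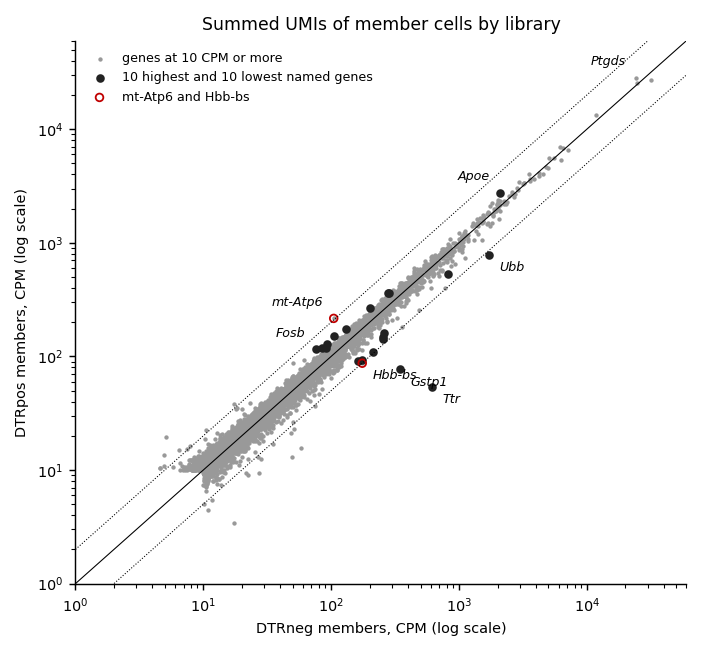
CPM of each gene at 10 CPM or more in at least 1 library, from summed UMIs of DTRneg members (x axis, log scale) and DTRpos members (y axis, log scale). The solid line marks equal levels and dotted lines a 2-fold difference; Ttr, Gstp1 and Ubb lie below the lower dotted line, and most genes lie between the dotted lines.

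Gstp1, which encodes the glutathione S-transferase pi that conjugates toxic electrophiles, stood at 345 CPM in DTRneg members and 76.8 CPM in DTRpos members. Its log2 ratio was -2.16 (-2.25 to -2.08). The near-identical pseudogene Gstp-ps went from 212 to 109 CPM (-0.96), and reads can be split between the 2 in a way that depends on the counting. Ubb, a polyubiquitin gene, went from 1708 to 781 CPM (-1.13, -1.16 to -1.10). Gstp1 was lower in DTRpos by a similar size outside the members, with log2 ratios of -1.98 in Klk6-positive cells and -2.16 in cells with under 3 mature genes. Ubb was likewise lower there, by -1.23 and -1.10. In the plot of the named genes in 3 classes, the other 8 lowest named genes also lay below 0 in each class, by sizes that differed most for Ttr.

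Ttr stood at 614 CPM in DTRneg members and 53.8 CPM in DTRpos members, a log2 ratio of -3.51 (-3.61 to -3.42). The 5 richest cells held 67.1% of its 18672 UMIs in DTRneg and 61.3% of its 984 UMIs in DTRpos. Without those cells the ratio was -3.28, and without cells marked by Scrublet as doublets it was -1.40. In cells with under 3 mature genes Ttr went from 23960 to 4785 CPM (-2.32), so its level moved the same way in the rest of each library. Whether the choroid plexus cells of a library set the Ttr of its members was not tested. Hbb-bs, a haemoglobin gene, went from 175 to 87.1 CPM (-1.01), but 95.2% and 83.0% of its UMIs lay in the 5 richest cells, and without them it went from 8.48 to 14.8 CPM (0.80, 0.55 to 1.05).

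**Figure D3:**
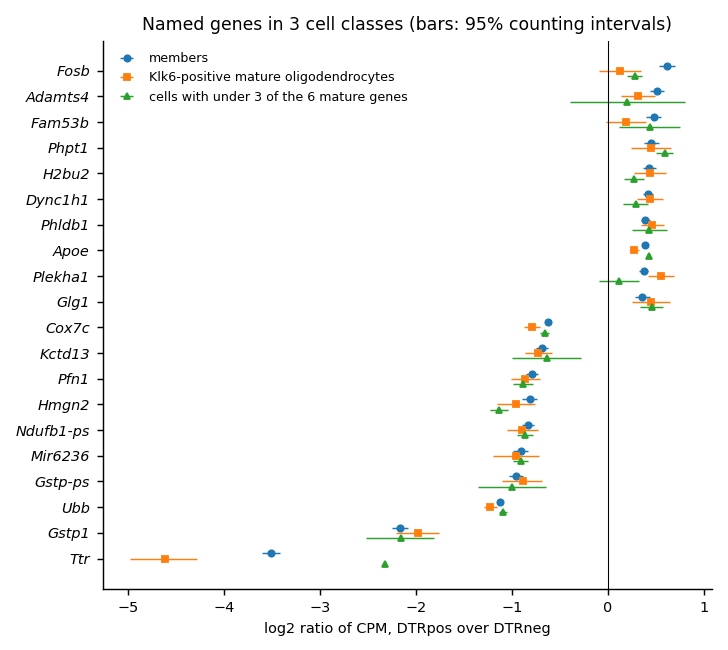
Log2 ratio of CPM, DTRpos over DTRneg (x axis), of the 10 highest and 10 lowest named genes (y axis) in members (circles), Klk6-positive mature oligodendrocytes (squares) and cells with under 3 of the 6 mature genes (triangles), with bars for 95% counting intervals. All 10 lowered genes lie below 0 in the 3 classes, and the higher genes lie between 0.36 and 0.61 in members.

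The remaining lowered genes at 100 CPM or more were Mir6236 (173 to 92.3 CPM), the respiratory chain pseudogene Ndufb1-ps (255 to 143 CPM), the nucleosome-binding gene Hmgn2 (162 to 91.9 CPM), the actin-binding profilin gene Pfn1 (254 to 147 CPM), Kctd13 (259 to 161 CPM) and the cytochrome oxidase subunit gene Cox7c (815 to 527 CPM). Their log2 ratios ran from -0.91 for Mir6236 to -0.63 for Cox7c. Cox7c stood at -0.79 in Klk6-positive cells and at -0.66 in cells with under 3 mature genes, and Pfn1 at -0.86 and -0.88.

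The highest genes in DTRpos members moved less. Fosb, an immediate early transcription factor gene, went from 75.6 to 116 CPM, a log2 ratio of 0.61 (0.53 to 0.70), against 0.12 in Klk6-positive cells (-0.10 to 0.34) and 0.28 in cells with under 3 mature genes. Adamts4, a metalloprotease gene, went from 106 to 151 CPM (0.51, 0.44 to 0.58). Apoe, the lipid carrier of the brain, went from 2106 to 2753 CPM (0.39, 0.37 to 0.40), with 0.28 in Klk6-positive cells and 0.42 in cells with under 3 mature genes, where its own level went from 10100 to 13533 CPM. The other 7 were Fam53b (0.47), Phpt1 (0.45), the histone gene H2bu2 (0.43), the dynein heavy chain gene Dync1h1 (0.42), Phldb1 (0.39), Plekha1 (0.37) and Glg1 (0.36). None of these 10 reached 2-fold.

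Myelin genes stood at like levels in the 2 libraries. Of 20 listed, 19 were at 10 CPM or more and none passed 2-fold. Among them, 8 had an interval above 0 and 7 below 0, against 33.6% and 15.3% of all 7466 genes. Their median log2 ratio was 0.02 beside 0.07 over all genes. The list includes 6 genes of the rule, Mag among them, while the 7466 genes leave those out. Its counts and median thus rest in part on genes that chose the cells. Mobp, a myelin-associated protein gene, was at 1826 and 2218 CPM (0.28), Mag, which binds myelin to the axon, at 3547 and 4032 CPM (0.18) and Mbp at 3619 and 3672 CPM (0.02). The tetraspanin gene Cd9 was at 865 and 619 CPM (-0.48). Sterol synthesis, which supplies the cholesterol of myelin, had 21 of 23 genes at 10 CPM or more with a median of 0.10, from Fdps at -0.46 to Mvk at 0.26. The 16 measured transcription factors and other regulators of the lineage had a median of 0.05. They ran from Nkx2-2 at -0.24 to Carhsp1 at 0.25, with Olig2 at -0.20. The 16 genes of axon contact and channels had a median of 0.06, with Cntn2, a contactin of the juxtaparanode, at 0.33. With TMM scaling, which lowers every ratio by 0.08 and so keeps each list's distance from all genes, the medians of the myelin (-0.06), transcription factor (-0.03) and axon contact (-0.02) lists fell on the other side of 0.

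Most listed interferon genes were at low levels in members. Of 22 genes of the type I response, 3 reached 10 CPM, with a median log2 ratio of -0.09, and of 30 genes of the interferon-gamma response 7 did, with a median of 0.14 from H2-D1 (-0.20) to Psmb10 (0.44). Ifit3, an antiviral effector gene, had 6 UMIs in DTRneg and 84 in DTRpos members, yet these lay in 8 DTRpos cells, and the 5 richest held 81 of them. Psmb8, a subunit gene of the immunoproteasome, went from 6 UMIs to 31 in 7 cells. All 34 Cd74 UMIs of DTRpos came from 1 cell. At least 10 of the 22 type I genes were found together in 4 DTRneg and 3 DTRpos members, with at most 13 and 21 genes in a cell. These few cells were 0.122% and 0.133% of members, and no cell with 8 or more of the genes was marked as a doublet.

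The list of genes raised in reactive oligodendrocytes had 10 of 16 genes at 10 CPM or more and a median of 0.14. Il33 stood at 627 and 627 CPM (0.00, -0.03 to 0.03), the lysosomal tetraspanin gene Cd63 at 615 and 678 CPM (0.14) and Socs3 at 10.8 and 7.93 CPM (-0.45). Cdkn1a, the p21 cell cycle inhibitor gene, went from 5.13 to 19.4 CPM (1.92, 1.65 to 2.20), but the 5 richest cells held 60.3% and 84.5% of its UMIs, and without them the ratio was 0.56 (0.01 to 1.11). Among 20 measured immediate early and stress genes, 9 had an interval above 0 and 9 below 0, beside the same 33.6% and 15.3% of all genes, with a median of -0.13 that turned to 0.06 in cells thinned to 2000 UMIs. Atf3 (18.4 and 35.2 CPM, 0.94), Fosb and Egr1 (180 and 227 CPM, 0.34) were higher in DTRpos, and the heat shock genes Hspa1b (85.2 and 51.7 CPM, -0.72) and Hspa1a (137 and 98.9 CPM, -0.47) lower. Dissociation of tissue is known to raise such genes, and its part in these values was not tested.

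Members were then set against the Klk6-positive mature oligodendrocytes, 294 cells in DTRneg and 213 in DTRpos that met the same rule but for Klk6 and Opalin. These cells were deeper, with medians of 10975.5 and 11248 UMIs, and 54.4% and 56.3% of them had exactly 1 Klk6 UMI, while 0.197% and 0.199% of the cells with under 3 mature genes had a Klk6 UMI. Most Klk6-positive cells also met the Opalin limit of the members. At least 2 Opalin UMIs were found in 85.7% and 86.9% of them, with medians of 13 and 14. Counts were summed per class and library and tested with edgeR's quasi-likelihood test with the library as a replicate block, leaving out the genes of the rule. At a Benjamini-Hochberg adjusted p under 0.05, 472 of 12644 genes were higher in members (3.73%) and 585 lower (4.63%), and 1036 of these 1057 had the same direction in both libraries. The 4 sums leave 1 residual degree of freedom, so the adjusted p-values lean on the spread shared across genes. Without the replicate block 63 genes were called (11 higher, 52 lower), DESeq2 with the block called 233, and sums of cells thinned to 2000 UMIs gave 379, of which 341 were also among the 1057.

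**Figure D4:**
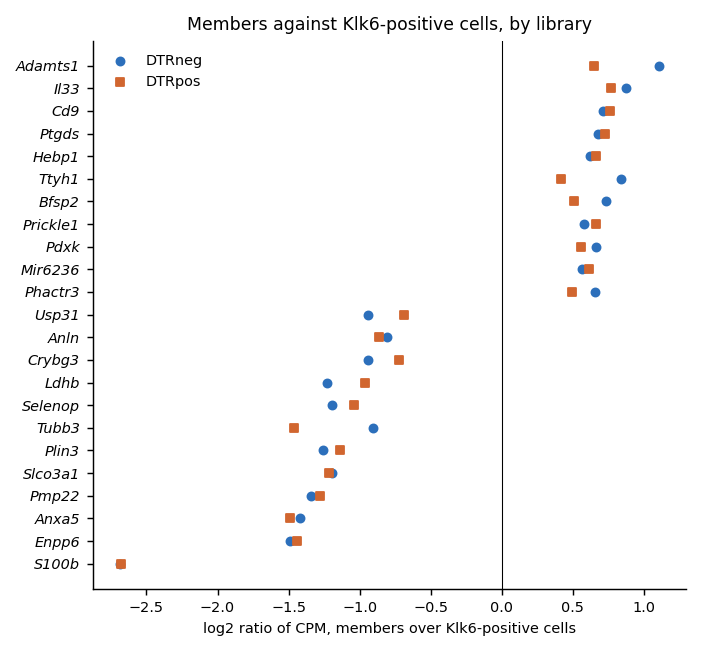
Log2 ratio of CPM, members over Klk6-positive mature oligodendrocytes (x axis), for 11 of the 12 highest and the 12 lowest called genes (y axis) in DTRneg (circles) and DTRpos (squares). Each gene was chosen to have both libraries on the same side of 0, and S100b lies farthest below 0 at -2.69 and -2.68.

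S100b, which encodes a calcium-binding protein, showed the largest difference among the named genes. It stood at 100 CPM in the members of both libraries and at 646 and 640 CPM in Klk6-positive cells, a fitted log2 difference of -2.63 (SE 0.05). Enpp6 stood at 77.9 and 68.5 CPM against 219 and 186 CPM (-1.41, SE 0.07). The calcium-dependent membrane binder gene Anxa5 (-1.40), the peripheral myelin protein gene Pmp22 (-1.26), the organic anion transporter gene Slco3a1 (-1.15), the lipid droplet gene Plin3 (-1.15), the tubulin gene Tubb3 (-1.09), the selenium carrier gene Selenop (-1.07), the lactate dehydrogenase gene Ldhb (-1.05), Crybg3 (-0.79), the septin-binding anillin gene Anln (-0.78) and Usp31 (-0.78) were also lower in members. Adjusted p-values of these 12 were at most 8.98e-24 in edgeR's quasi-likelihood test. All 24 named genes were chosen to have the same direction in both libraries. DESeq2 made the same call for all 24. Without the replicate block 14 were called, with Plin3 and Usp31 among those lost, and after thinning 23, with Crybg3 lost.

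The named genes higher in members, at a mean of 50 CPM or more, had fitted differences of less than 2-fold. Among listed genes below that level, Vtn, a pericyte marker, was called at 3.03 and Cdkn1a at 1.76, and 5 cells of each library held 75.8% and 81.5% of the members' pericyte list UMIs. Il33 stood at 627 and 627 CPM in members and at 342 and 368 CPM in Klk6-positive cells (0.88, SE 0.04), and Ptgds at 24371 and 28222 CPM against 15273 and 17091 CPM (0.75, SE 0.01). Adamts1, a secreted metalloprotease gene, had the highest fitted value of the named genes (0.93, SE 0.08), with 1.11 in DTRneg and 0.65 in DTRpos. Cd9 (0.79), the heme-binding gene Hebp1 (0.69), Ttyh1 (0.68), the lens filament gene Bfsp2 (0.68), Prickle1 (0.67), the vitamin B6 kinase gene Pdxk (0.66), Mir6236 (0.64) and Phactr3 (0.63) followed. Adjusted p-values of the 12 genes that the rule chose were at most 7.27e-15 in edgeR with the block, and 8 of them, all but Adamts1, Il33, Ptgds and Bfsp2, were not called without the replicate block.

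Over all genes, 3.73% were called higher and 4.63% lower, and the listed genes were read beside these shares. Of 8 measured genes of the Klk6-rich form, 7 were lower in members, with a median log2 difference of -0.98 beside 0.00 over all genes, including Hopx (-1.99), Mgst3 (-1.12) and Cd59a (-0.83). This list was drawn up with earlier results of these data known, so its direction is not independent evidence. Of 12 genes of the Ptgds-rich form, 5 were higher and 4 lower, the lipocalin gene Apod (-0.46) and the paranodal link protein gene Hapln2 (-0.74) among the lower ones. Myelin genes split evenly, with 5 of 13 higher and 5 lower. Sterol synthesis had 8 of 23 genes lower and 1 higher, with Sqle (-0.53), Idi1 (-0.37) and Hmgcs1 (-0.27) lower and Insig1 (0.23) higher. Type I interferon genes were lower in members for 9 of 17, but the 5 richest cells held 30.1% and 29.1% of the list's UMIs in Klk6-positive cells, and Ifit3 had opposite directions, with 0.197 against 14.2 CPM in DTRneg and 4.59 against 0.618 CPM in DTRpos.

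The third class, 143 and 134 Klk6-negative mature oligodendrocytes with under 2 Opalin UMIs, was shallow (medians of 3772 and 2725 UMIs) and mixed. It held 27236 and 12122 CPM of Ttr, against 614 and 53.8 CPM in members, and 5 cells held 77.1% and 92.7% of its choroid plexus list UMIs. It also held the neural genes Rtn1 (831 and 622 CPM), Marcks (1356 and 964 CPM) and Tubb2b (574 and 679 CPM), which stood at no more than 22.2 CPM in members. Against this class, 1199 of 13064 genes were higher in members (9.18%) and 1442 lower (11%) in edgeR with the library block, and without the block or in DESeq2 the counts of both directions together were 2133 and 1357. Of 15 measured genes of committed and newly formed oligodendrocytes, 12 were lower in members. In the Opalin-low class, 5 cells held 31.3% of this list's UMIs in DTRneg and 36.7% in DTRpos. Gpr17, a receptor gene of differentiating precursors, stood at 3.32 and 2.95 CPM in members against 107 and 67.1 CPM, Bmp4 at 1.22 and 2.08 against 98.6 and 71.1 CPM, and Enpp6 at 77.9 and 68.5 against 681 and 265 CPM. Of 13 myelin genes outside the rule, 9 were higher in members and 1 lower, with a median of 0.65. Ptgds (3.20), Il33 (3.09), Hebp1 (2.95), Grb14 (1.95), Tmod1 (1.95), Clmn (1.93), the dihydropteridine reductase gene Qdpr (1.88) and Nudt4 (1.88) were higher in members, as was Hbb-bs, whose member UMIs lay in few cells. Adjusted p-values in edgeR's test were at most 9.89e-13 for the 12 named genes that were higher and 3.62e-34 for the 12 that were lower.

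Among members of 1 library, most measured genes had a variance close to their mean after thinning. After thinning to 2000 UMIs, the Fano factor, the variance over the mean and about 1 for Poisson counting, had a median of 1.03 over 1541 genes, and 23 genes (1.49%) reached 2 in both libraries. At low counts the factor lies near 1 even where levels differ between cells, so this median does not show that most genes were uniform. Enpp6 and S100b, which differed along the Ptgds order below, had a UMI in only 10.8% and 10.6% of thinned DTRneg members. Ptgds had Fano factors of 36.0 in DTRneg and 39.9 in DTRpos at means of 50.5 and 59.1 UMIs per cell. The nuclear RNA Malat1 had 37.4 and 37.7, Fos 9.64 and 9.64, the iron storage gene Fth1 6.16 and 6.28, Apoe 4.96 and 6.12, Egr1 2.67 and 2.89, the small heat shock gene Cryab 2.85 and 2.58 and Apod 2.41 and 2.64. The mitochondrial transcripts mt-Rnr2, mt-Rnr1 and mt-Cytb, the nuclear ribosomal annotation CT010467.1 and Actb also lay above 2. Hbb-bs had the highest values, 440 and 540, and its UMIs lay in few cells.

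Some of these genes varied together across cells. Apoe followed Ptgds, with Pearson's r of 0.48 over 3248 DTRneg cells and 0.50 over 2180 DTRpos cells. Fos and Egr1 had r of 0.57 and 0.64, and Fth1 and Apod 0.44 and 0.35. The cells of a correlation share a library and a fixed total, in which more UMIs of 1 gene leave fewer for the others, and r is given as a description only.

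Members were therefore ordered by their Ptgds UMIs after thinning and split in 4 groups of about equal size within each library. The lowest group had medians of 9 and 13 Ptgds UMIs and the highest 97 and 114.5. Depth was close, with medians of 7696.5 and 7339 UMIs before thinning in the lowest and highest groups of DTRneg and 6322 and 5971.5 in DTRpos. Of 1862 genes at 100 CPM or more, 2 were at least 2-fold higher in the highest group in both libraries (0.107%) and 17 at least 2-fold lower (0.913%). The median log2 ratio over genes at 10 CPM or more was -0.12 and -0.15, in cells whose fixed total held more Ptgds.

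**Figure D5:**
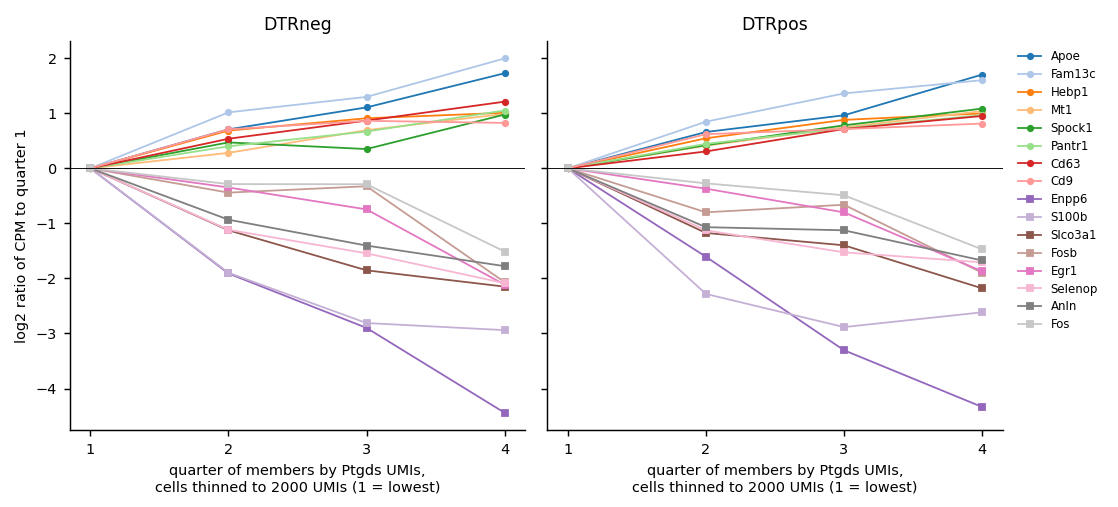
Log2 ratio of CPM to the lowest group (y axis) across the 4 groups of members ordered by Ptgds UMIs after thinning (x axis), for the 8 highest and 8 lowest genes, in DTRneg (left) and DTRpos (right); circles are the higher and squares the lower genes. Enpp6 ends lowest in both libraries at -4.44 and -4.33, and Apoe and Fam13c end highest.

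Enpp6 differed most among the genes at 100 CPM or more. From the lowest to the highest group it stood at 186, 49.5, 24.9 and 8.57 CPM in DTRneg and at 185, 60.7, 18.7 and 9.16 CPM in DTRpos, in the same order in both libraries. S100b stood at 235, 63.0, 33.5 and 30.6 CPM and at 241, 49.6, 32.7 and 39.4 CPM, with most of the difference between the lowest group and the next. Slco3a1 (log2 ratios of -2.15 and -2.18), Selenop (-2.09 and -1.71), Anln (-1.78 and -1.67), Pmp22 (-1.44 and -1.59) and Plin3 (-1.57 and -1.10) were also at least 2-fold lower. S100b, Enpp6, Slco3a1, Selenop, Anln, Pmp22 and Plin3 were thus low in members against Klk6-positive cells and low in the Ptgds-rich group among members without a Klk6 UMI. In the rest of the 17, Hmgcs1, the entry enzyme gene of sterol synthesis, went from 468 to 207 CPM and from 398 to 195 CPM.

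Apoe was higher in each group of cells than in the one before in both libraries, from 1143 to 3781 CPM and from 1568 to 5099 CPM (1.73 and 1.70), and Fam13c from 45.1 to 180 CPM and from 53.2 to 161 CPM. Hebp1 (146 to 293 CPM and 123 to 246 CPM), the metallothionein gene Mt1 (0.99 and 1.04), the proteoglycan gene Spock1 (0.98 and 1.08), Pantr1 (1.05 and 0.97), Cd63 (1.21 and 0.95) and Cd9 (0.82 and 0.81) lay near 2-fold. Apoe is also abundant outside oligodendrocytes, at 10100 and 13533 CPM in cells with under 3 mature genes, and a part of free RNA in these values was not tested. Astrocyte markers summed to 182 and 213 CPM in the lowest and highest groups of DTRneg and to 214 and 207 CPM in DTRpos, with Aqp4 at 0 by the rule. Of the 4 measured at 10 CPM or more, 3 were higher in the highest group in both libraries and 1 lower. Their median log2 ratios were 0.34 and 0.14, beside -0.12 and -0.15 over all genes, of which 1673 of 8025 were higher in both.

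Immediate early genes were low where Ptgds was high. Of 20 measured genes of that list, 14 were lower in the highest group in both libraries and 7 of them at least 2-fold, against 5 that were higher, while over all genes at 10 CPM or more 3663 of 8025 were lower in both and 1673 higher. Fos went from 1181 to 414 CPM and from 1333 to 481 CPM, Egr1 from 209 to 48.3 CPM and from 295 to 80.6 CPM, and Fosb from 87.2 to 20.8 CPM and from 157 to 42.1 CPM. The heat shock genes Hspa1a (0.63 and 0.59) and Hspa1b (0.61 and 0.71) went the other way. Of 21 sterol synthesis genes, 17 were lower in the highest group in both libraries and 1 higher, with medians of -0.67 and -0.33. Among 13 myelin genes outside the rule, 9 were lower and 3 higher, with Mobp at -0.44 and -0.34.

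Members were also split by whether an Il33 UMI was left after thinning, a contrast unlike that of the outer Ptgds groups. A UMI of Il33 was left in 2070 of 3248 DTRneg cells and 1386 of 2180 DTRpos cells, and in cells with under 3 mature genes in 8.40% and 9.56%. Before thinning, 87.3% and 84.2% of members had an Il33 UMI, so many cells counted without Il33 had lost it by thinning. The numbers of genes from the 2 splits are therefore not comparable. Of 1776 genes at 100 CPM or more, 0 were 2-fold higher with Il33 in both libraries (0%) and 1 was 2-fold lower (0.0563%). That gene was S100b, at 43.2 against 176 CPM in DTRneg and 54.5 against 157 CPM in DTRpos. Enpp6 stood at 48.7 against 105 CPM in DTRpos, with log2 ratios of -0.99 in DTRneg and -1.10 in DTRpos, and Plin3, Selenop, Pmp22, Slco3a1, Tmem141 and Ldhb were lower by smaller sizes. Ptgds (0.30 and 0.28) and Apoe (0.31 and 0.30) were higher in the cells with Il33.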

How the data were processed

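Hippocampal CD45- Thy1- cells were captured with a 10x Genomics 3' v2 kit, per the labels. The deposited values are the authors' unnormalized UMI counts. The file headers name Cell Ranger 6.1.0, and mm10 and Seurat are named in the submitters' processing notes. The remaining samples of the series were not used here. Counts of 55487 gene IDs were summed to 55367 symbols. Scrublet in Scanpy 1.11.5 marked 242 of 7105 DTRneg cells and 158 of 5849 DTRpos cells as doublets, which were kept in the main values and left out in an alternative.

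DTRpos and DTRneg were compared by CPM of summed counts, with exact conditional binomial 95% intervals. UMIs of 1 cell are not independent draws, so intervals cover counting error only. Classes were compared in R 4.3.3 with edgeR 4.0.16, using its quasi-likelihood test after filterByExpr and TMM scaling and adjusting p-values by Benjamini-Hochberg, with the library as a block because both classes come from the same animals, and with DESeq2 1.42.0. The edgeR test was run on simulated counts for both class comparisons, and DESeq2 was not. The simulation gave every gene the same spread and each library the same effect in both classes. It therefore cannot show whether the calls in the real sums, or those lost without the block, are sound. For the Fano factors and splits, each cell was thinned to 2000 UMIs and shallower cells were left out.

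Named genes were the 10 highest and 10 lowest at 100 CPM or more between libraries, outside mitochondrial, ribosomal protein, haemoglobin and sex genes. They were the 12 highest and 12 lowest called genes at a mean of 50 CPM or more with 1 direction in both libraries between classes, the 15 highest Fano factors at a mean of 0.2 UMIs or more, and the 8 highest and 8 lowest in the splits. Members of gene lists and genes past 2-fold were named beside them, some chosen after their values were seen. The members and lists were chosen with earlier results of these data known. Some genes that these rules chose are not reported here.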

Additional observations from a re-analysis of the deposited data

Results flagged for a closer look

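Hbb-bs, a haemoglobin gene, moved in opposite directions in 2 classes of the same libraries. Its log2 ratio of DTRpos over DTRneg was -1.01 in members and 7.39 in Klk6-positive mature oligodendrocytes, where it went from 6.34 to 1062 CPM. The difference was not tested, with 1 library per genotype. In members, 1 cell held 3122 of the 5322 DTRneg UMIs and 1 cell 1311 of the 1592 DTRpos UMIs. Without the 5 richest cells of each library the ratio in members was 0.80. In the DTRpos Klk6-positive cells, 5 of 213 cells held 99.1% of the 7122 UMIs of the red blood cell list.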

How the results depend on the processing

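The log2 ratio of the members' share among mature oligodendrocytes was -0.03, moved to 0.038 in cells thinned to 2000 UMIs and was -0.055 with at least 4 Opalin UMIs. Among all cells it was -0.26 and moved to -0.17 after thinning, a denominator added after seeing the data. The 5 genes past 2-fold between the libraries became 8 at 50 CPM or more. The ratio of Hbb-bs turned from -1.01 to 0.42 with cells weighted equally, 0.52 after thinning and 0.80 without the 5 richest cells of each library, an alternative chosen after seeing the data. Against Klk6-positive cells, 1057 calls became 63 without the replicate block, 233 in DESeq2 and 379 after thinning. Against Opalin-low cells, 2641 calls became 1357 in DESeq2 and 1142 after thinning, and without the replicate block they were 2133. The cause of these changes was not tested. The paired fit is the main one here, because the sums of both classes come from the same library. Leaving out a library left 1 pair of sums and no test. The named genes of both class comparisons kept their direction in all 192 alternative values each. The values that leave out a library could not turn, because these genes were chosen for 1 direction in both libraries. Thinning to 1000 UMIs left 10 genes of 721 with a Fano factor of at least 2 in both libraries, against 23 of 1541, and gave 4 genes past 2-fold by Il33 detection in place of 1.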
